A study of Mus musculus with 2 samples.

Results

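Opposite sides of one macrophage population were compared in mosaic mouse carcinomas: macrophages rich in Cxcl9 transcripts and macrophages rich in Spp1 transcripts. Both sides were chosen by measured counts of unique molecular identifiers (UMIs, each standing for 1 captured RNA molecule). A barcode, taken as 1 cell, entered the macrophage gate if it held 1000 or more gene UMIs from 500 or more genes, and if mitochondrial genes gave no more than 10% of its UMIs. It also needed at least 1 UMI of Csf1r, no UMI of the T cell gene Cd3e, and at least 0.2% of its UMIs from C1qa, C1qb and C1qc. Cxcl9-high macrophages then had at least 3 UMIs of Cxcl9 and at most 2 of Spp1. Spp1-high macrophages had at least 20 UMIs of Spp1 and none of Cxcl9. These thresholds gave 343 Cxcl9-high and 731 Spp1-high macrophages, together 1074 of the 6241 barcodes in the gate and of 11552 barcodes past the depth and mitochondrial filters.

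The cells came from 2 untreated subcutaneous squamous cell carcinomas in FVB mice, named replicate 1 and replicate 3. Each tumour grew from a mixture of 2 carcinoma cell lines, CIT6 labelled with YFP and CIT9 labelled with RFP. Light was used to print oligonucleotide codes (the ZipSeq method) onto regions of tumour sections rich in YFP, rich in RFP or mixed, before digestion and sorting of CD45+ leukocytes for 10x 3' v3 sequencing. The labels give neither the code that marks each region nor whether the tumours grew in separate animals. The p-values therefore measure only how far differences between macrophage groups of the same tumour varied across these 2 tumours. Between the 2 libraries, 4 gated barcodes shared a sequence.

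Cxcl9 encodes a chemokine that interferon-gamma induces and that draws in T cells bearing the receptor CXCR3. Spp1 encodes osteopontin, a secreted phosphoprotein that binds CD44 and integrins and is made by macrophages in wounds, fat tissue and tumours. In tumours, macrophages rich in one or the other of these transcripts are often described as opposite states. Interferon acts on its target genes partly through short promoter elements: the interferon-stimulated response element (ISRE) and the gamma-activated site (GAS). Genes of cell division often carry CCAAT boxes, bound by the factor NF-Y.

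Promoter sequence is given first for genes that carry the main differences described further on, each as the 250 bases before the RefSeq start (build GRCm38.p6), 5′ to 3′ on the gene's strand. Cxcl10, a chemokine for the same receptor as Cxcl9, and Gbp2, a guanylate-binding protein, stand for the interferon genes higher on the Cxcl9 side. Serpina3g, a serine protease inhibitor, is shown for a GAS match, and Top2a, the topoisomerase of dividing cells, for the genes higher on the Spp1 side. Capitals mark matches to the ISRE pattern (GAAA, any 2 bases, GAAA) in Cxcl10 and Gbp2, to TTCNNNGAA (GAS) in Serpina3g and to CCAAT in Top2a, each searched on both strands.
Cxcl10, chr5:92348890-92349139, minus strand: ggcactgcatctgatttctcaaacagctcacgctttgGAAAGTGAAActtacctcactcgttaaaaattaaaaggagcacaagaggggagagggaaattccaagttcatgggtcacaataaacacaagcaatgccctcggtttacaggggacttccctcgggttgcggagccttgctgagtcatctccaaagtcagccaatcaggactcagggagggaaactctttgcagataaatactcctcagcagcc
Gbp2, chr3:142620413-142620662, plus strand: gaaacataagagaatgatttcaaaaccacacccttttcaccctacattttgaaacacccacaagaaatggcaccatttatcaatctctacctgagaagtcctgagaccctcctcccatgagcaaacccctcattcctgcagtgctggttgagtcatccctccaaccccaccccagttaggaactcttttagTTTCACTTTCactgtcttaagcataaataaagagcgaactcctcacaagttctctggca
Serpina3g, chr12:104235897-104236146, plus strand: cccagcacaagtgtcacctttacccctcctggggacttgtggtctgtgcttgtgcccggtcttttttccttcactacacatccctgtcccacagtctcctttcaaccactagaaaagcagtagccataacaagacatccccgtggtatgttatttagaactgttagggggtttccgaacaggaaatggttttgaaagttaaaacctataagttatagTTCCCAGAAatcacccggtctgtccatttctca
Top2a, chr11:99024190-99024439, minus strand: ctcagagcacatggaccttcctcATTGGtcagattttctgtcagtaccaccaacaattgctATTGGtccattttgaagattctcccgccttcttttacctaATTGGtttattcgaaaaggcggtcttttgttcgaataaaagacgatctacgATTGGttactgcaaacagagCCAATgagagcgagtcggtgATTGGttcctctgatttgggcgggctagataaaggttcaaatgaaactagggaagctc
The ISRE match began 213 bases before the start in Cxcl10 and 59 bases before it in Gbp2, and the GAS match 33 bases before it in Serpina3g. Top2a held 6 CCAAT boxes. Of the 2 genes that set the sides, Cxcl9 held no match to the ISRE or GAS pattern in its 250 bases. Spp1 held 1 match, to the ISRE pattern, 157 bases before the first of its 2 listed starts, and none before the second. Presence of a match therefore did not follow the sides for these 2 genes.

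The number of cells on each side differed between the tumours. Cxcl9-high macrophages made up 3.17% of the gate in replicate 1 (95 of 2994; exact 95% binomial interval 2.57% to 3.87%) and 7.64% in replicate 3 (248 of 3247; 6.75% to 8.61%). Spp1-high macrophages made up 7.82% in replicate 1 (234 barcodes; 6.88% to 8.84%) and 15.3% in replicate 3 (497 barcodes; 14.1% to 16.6%). Both shares were larger in replicate 3, and the intervals cover counting error only. The share of Spp1-high cells rests on the depth of each barcode. After thinning every barcode of at least 5000 UMIs to that depth, with the same thresholds, it was 1.03% and 1.97%. For Cxcl9-high cells it was then 2.68% and 7.24%.

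The values that set the sides are given as a description. Cxcl9-high cells held a median of 13 Cxcl9 UMIs in replicate 1 (3 to 269) and of 15 in replicate 3 (3 to 414). Spp1-high cells held a median of 37 Spp1 UMIs in replicate 1 (20 to 243) and of 49 in replicate 3 (20 to 464). In CPM, a gene's UMIs scaled to a total of 1000000 gene UMIs, Cxcl9-high cells reached 1473 and 1600 for Cxcl9, and Spp1-high cells 2100.4 and 2035 for Spp1. Free RNA, measured in barcodes of 10 to 100 UMIs, held Cxcl9 at 53.3 and 133 CPM and Spp1 at 215 and 1255 CPM. Among T cell barcodes, 0.299% and 0.697% reached 3 Cxcl9 UMIs, and 0.599% and 2.37% reached 20 Spp1 UMIs. Whether T cells made these transcripts themselves was not tested. Those T cell barcodes were shallower, with median depths of 4351 and 6517 UMIs.

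High Cxcl9 and high Spp1 were also found in the same barcodes. At least 20 Spp1 UMIs were present in 12.02% of gated barcodes with at least 3 Cxcl9 UMIs in replicate 1 (19 of 158), against 8.39% of the other gated barcodes. In replicate 3 the shares were 22.8% (120 of 527) and 21.4%. These 19 and 120 barcodes belonged to neither side. They were the deepest of the gate, with median depths of 27648 and 39343 UMIs, against 18666.5 and 23614.5 for the rest of the gate, which here means gated barcodes on neither side and not high for both. The highest doublet scores fell on 10.53% and 16.7% of them, against 3.54% and 5.36% of the gate, and the part of doublets in the values of this class was not tested.

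The sides differed in depth. Median depth was 22636 and 21367 UMIs in Cxcl9-high cells, in replicates 1 and 3, and 25296 and 34676 UMIs in Spp1-high cells. Median mitochondrial shares were close, at 4.898% and 3.997% against 4.55% and 3.64%. Macrophage identity was checked with 8 markers that the gate did not use (such as Adgre1, Cd68 and Mertk), which summed to 18758 and 23238 CPM in Cxcl9-high cells and to 13932 and 15775 in Spp1-high cells, against 378 and 463 in T cell barcodes. Most of the sum on each side came from Lyz2, at 13080 and 17310 CPM in Cxcl9-high cells and 10384 and 11849 in Spp1-high cells. Cd14 had opposite order in the 2 tumours, at 1057 and 754 CPM in Cxcl9-high cells against 1031 and 1129. All 8 markers were detected on both sides. Of these markers, 5 were higher in Cxcl9-high cells, among them Ms4a7 (log2 difference 1.37 ± 0.104 SE) and Adgre1, the F4/80 antigen (0.92 ± 0.0987).

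Differences were tested with edgeR's quasi-likelihood test on UMIs summed per tumour and side, with the tumour as a block and all other gated barcodes as a further class. Log2 differences are Cxcl9-high minus Spp1-high, levels are CPM (total without the genes that chose the cells), and a gene counts as different at a Benjamini-Hochberg adjusted p below 0.05. Of 11943 genes tested, 841 (7.04%) were higher in Cxcl9-high and 864 (7.23%) in Spp1-high macrophages. The difference had the same sign in both tumours for 1693 of these 1705 genes. At least 2-fold differences were found for 303 and 396 of them. The median difference over all genes tested was close to 0 (-0.0003). These counts rest on the block: without it, edgeR called 0 genes in either direction, with 1475 genes at an unadjusted p below 0.05 against 3698 with it, and DESeq2 with the block called 752 and 766.

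**Figure D1:**
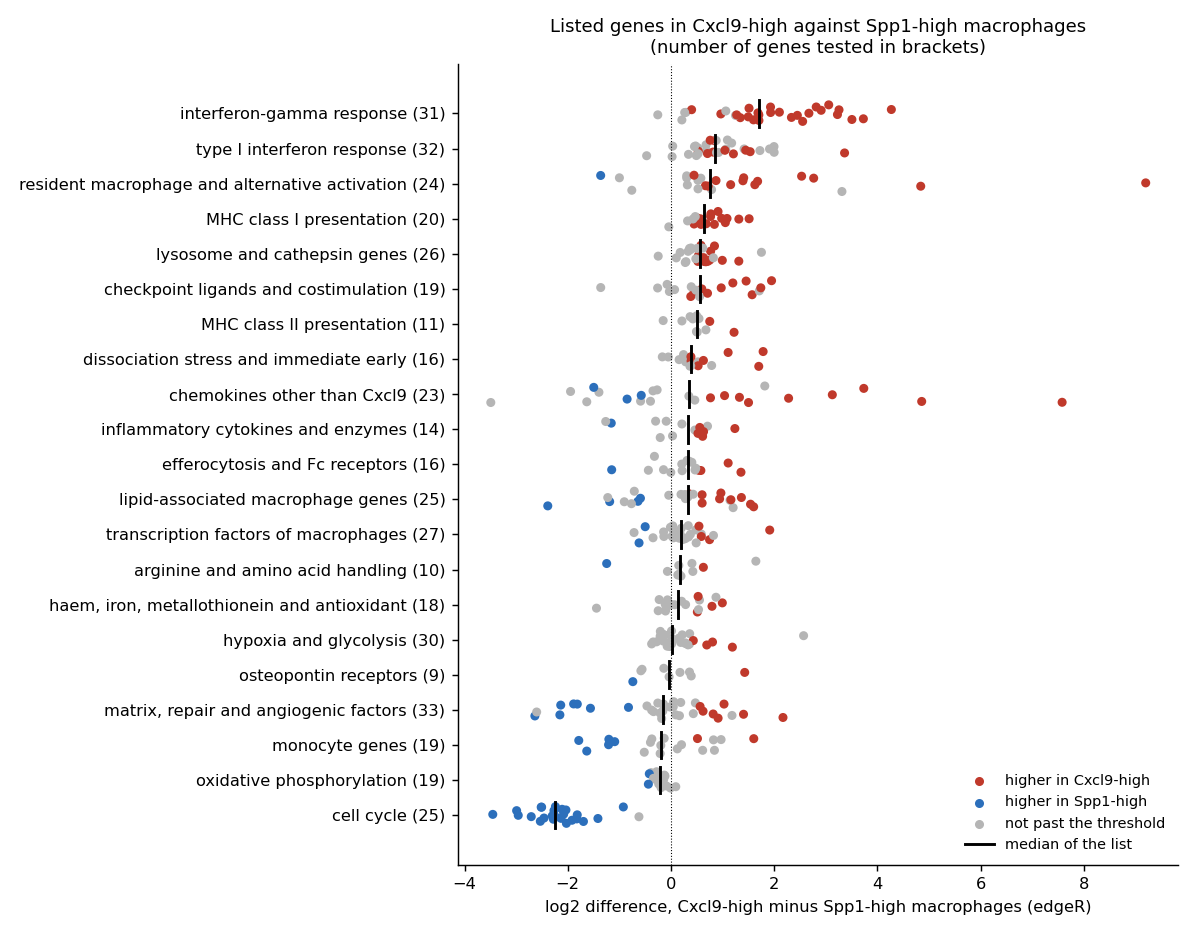
Log2 difference (x axis, Cxcl9-high minus Spp1-high) of every tested gene in 21 gene lists, 1 point per gene, red for higher in Cxcl9-high, blue for higher in Spp1-high, grey for not past the threshold, with the list's median as a bar. The interferon-gamma list sits farthest to the right, with a median of 1.70, and the cell cycle list farthest to the left, at -2.24. The 2 points beyond 7 are Cd209f and Cxcl13, whose UMIs came from few barcodes.

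Interferon-gamma target genes were higher in Cxcl9-high macrophages. Of 31 genes tested in that list, 25 were higher there and none in Spp1-high cells, where the background over all genes was 7.04% and 7.23%. The list's median difference was 1.70. Summed, its genes reached 3424 and 3525 CPM in Cxcl9-high cells of replicates 1 and 3, and 1680 and 1595 in Spp1-high cells. The rest of the gate lay between, at 2195 and 2165. The 25 included all 10 guanylate-binding proteins (Gbp2 to Gbp10 with Gbp2b), which attack vacuoles holding pathogens, and the immunity-related GTPases Iigp1, Igtp and Irgm1.

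Gbp2 stood at 372 and 363 CPM in Cxcl9-high cells and at 49.2 and 44.8 in Spp1-high cells. The groups were far apart in both tumours (log2 difference 3.06 ± 0.206; adjusted p = 0.000658), and Gbp2 was detected in 75.8% and 80.6% of Cxcl9-high barcodes against 41.0% and 43.7% of Spp1-high ones. Gbp2b showed a larger difference, at 21.6 and 53.2 against 1.195 and 2.96 CPM (4.27 ± 0.183; adjusted p = 0.000126). Serpina3g stood at 79.8 and 129 against 8.37 and 9.09 CPM (3.73 ± 0.207). Il18bp, which binds and blocks interleukin 18, stood at 118 and 117 against 21.3 and 15.3. Irf1, a transcription factor induced by interferon, stood at 131.5 and 146 against 48.8 and 72.5. For each of these genes both tumours had their higher value in Cxcl9-high cells.

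The interferon-gamma receptor genes differed less. Ifngr2 was higher in Cxcl9-high cells by 0.40, and Ifngr1 (0.21), Jak1 (0.27) and Jak2 (-0.26) did not pass the test. Nos2, the inducible nitric oxide synthase, was also not tested, at 4.70 and 0.185 CPM in Cxcl9-high cells and 0.512 and 0 in Spp1-high cells. No UMI of Ido1 was found on either side in either tumour.

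Genes of the type I interferon response differed less uniformly. Of 32 tested, 10 were higher in Cxcl9-high cells (31.25%, against 7.04% of all genes) and none in Spp1-high cells, with a median of 0.86. Summed, the list stood at 2303 and 4540 CPM in Cxcl9-high cells of replicates 1 and 3, against 2366 and 2862 in Spp1-high cells. Only replicate 3 therefore showed a gap in the sum. Zbp1, a sensor of Z-form nucleic acids, stood at 58.2 and 156 against 24.4 and 52.4 CPM (1.53 ± 0.135). Isg15, a ubiquitin-like modifier, stood at 66.7 and 194 against 58.4 and 59.5 (1.21 ± 0.331; adjusted p = 0.0499), so that only replicate 3 showed a clear gap. Without replicate 3 its difference was 0.24, and without replicate 1 it was 1.81. Its call was lost in a fit of the 2 sides alone, with DESeq2, with depth-matched barcodes and with free RNA subtracted, at differences from 1.10 to 1.28. Ifit1, Ifit2, Ifit3, Mx1 and Irf7 had positive differences from 1.17 to 2.00 that did not pass the test. The count of 10 depended on the settings: 4 were called with depth-matched barcodes, 3 in a fit of the 2 sides alone, 17 with at most 5% mitochondrial UMIs and 18 with stricter thresholds. The median moved less, to 0.88 with depth-matched barcodes and 0.79 with the 2 sides alone.

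The ISRE pattern was present in the 250 bases before the start for 10 of the 18 called interferon-gamma genes found in the RefSeq table (55.6%). Over all 32851 promoters in the table its share was 2.98%, and over the 9225 tested genes found there 3.54%. TTCNNNGAA was present in 7 of those 18 (38.9%), against 7.02% of all promoters. Over all 25 listed interferon-gamma genes found in the table, called or not, the shares were about the same, at 52% and 40%. The list was chosen as interferon targets, so these shares do not bear on the difference between the sides. Among all 653 matched genes called higher in Cxcl9-high cells the ISRE pattern was present in 7.96%, and among the 688 called higher in Spp1-high cells in 3.05%. The matches are descriptions of sequence and do not show that a factor binds there.

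Chemokine genes split between the sides. Of 23 tested besides Cxcl9, 9 were higher in Cxcl9-high and 3 in Spp1-high cells, with a median of 0.35. Ccl8, a ligand of CCR receptors on monocytes and T cells, was the most abundant of those higher on the Cxcl9 side, at 2091 and 3086 CPM against 289.9 and 328 (3.13 ± 0.134; adjusted p = 0.000126). It was not raised in barcodes high for both genes, at 111 and 876, where the rest of the gate held 979 and 1161. Cxcl10 stood at 253 and 402 in Cxcl9-high cells and at 59.2 and 82.0 in Spp1-high cells (2.28 ± 0.151), and its highest values, 956 and 681, were in barcodes high for both. Cxcl16, the membrane-bound ligand of CXCR6, stood at 878 and 840 against 523 and 542 (0.77 ± 0.102).

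Ccl5, a chemokine for T cells and monocytes, showed the largest difference among genes of at least 50 CPM, at 829 and 179 against 12.3 and 15.1 (4.86 ± 0.532; adjusted p = 0.00312). The size differed between tumours, with 6.11 without replicate 3 and 3.67 without replicate 1. In replicate 1, a single barcode held 26.6% of the Ccl5 UMIs of the Cxcl9-high side. Subtracting 10% of each sum as free RNA, with negative values set to 0, ended the call (adjusted p = 0.0593). The fitted difference was then 17.47, against 4.02 to 5.28 in the other settings with both tumours. That value is not read as a size, because the subtraction can take a low sum to 0. Whether it did so here was not tested. Cxcl13 and Ccl22 also passed the test, but all UMIs of each in the Cxcl9-high cells of replicate 1 came from 1 barcode, and in replicate 3 a single barcode held 62.9% and 75.0% of them. Over all 841 genes higher in Cxcl9-high cells, 20 had more than 50% of their UMIs in a single barcode in at least 1 tumour, against 2 of the 864 higher in Spp1-high cells.

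On the Spp1 side, Ccl9 stood at 382 and 319.8 against 142 and 97.8 CPM (-1.50 ± 0.108), and Ccl6 at 441 and 155 against 312 and 60.9 (-0.85 ± 0.185). Both are ligands of CCR1 made by myeloid cells. The Ccl6 call was lost with depth-matched barcodes (-0.80; adjusted p = 0.101) and with barcodes high for both genes as a class (-0.82; adjusted p = 0.178), at differences of about the same size. Ccl2, Ccl3, Cxcl1 and Cxcl2 did not pass the test.

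Antigen presentation by MHC class I was higher in Cxcl9-high cells, and class II was so for only 2 genes. Of 20 class I genes tested, 16 were higher in Cxcl9-high and none in Spp1-high cells, with a median of 0.64. H2-K1, a classical class I heavy chain, stood at 2692 and 3536 against 1576 and 2090.0 CPM (0.84 ± 0.0992; adjusted p = 0.00368). Tap2, a subunit of the peptide transporter, stood at 112 and 138 against 53.8 and 73.6 (1.05 ± 0.102). Nlrc5, the class I transactivator, was low but higher in both tumours, at 22.5 and 18.9 against 8.37 and 7.01. Of 11 class II genes, Ctss and H2-Ob were higher in Cxcl9-high cells (18.2%, against 7.04% of all genes). H2-Ab1, a class II beta chain, stood at 8242 and 12624 against 8048 and 6668, so that a gap was seen in replicate 3 only (0.54 ± 0.199; adjusted p = 0.111).

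Ligands that restrain or help T cells were also on the Cxcl9 side. Of 19 tested, 10 were higher in Cxcl9-high and none in Spp1-high cells, though 2 were called with depth-matched barcodes and 2 without dividing barcodes. Cd274, which encodes PD-L1, stood at 79.4 and 48.1 against 28.2 and 19.7 CPM (1.46 ± 0.14; adjusted p = 0.00232). Cd40, the receptor of CD40 ligand, stood at 62.5 and 69.4 against 25.6 and 22.3 (1.57 ± 0.136). Both genes were as high in barcodes with both transcripts, at 78.0 and 49.2 for Cd274 and at 74.1 and 68.5 for Cd40. Cd80 and Pdcd1lg2, which encodes PD-L2, did not differ beyond the test's threshold (-0.08 and -0.03).

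**Figure D2:**
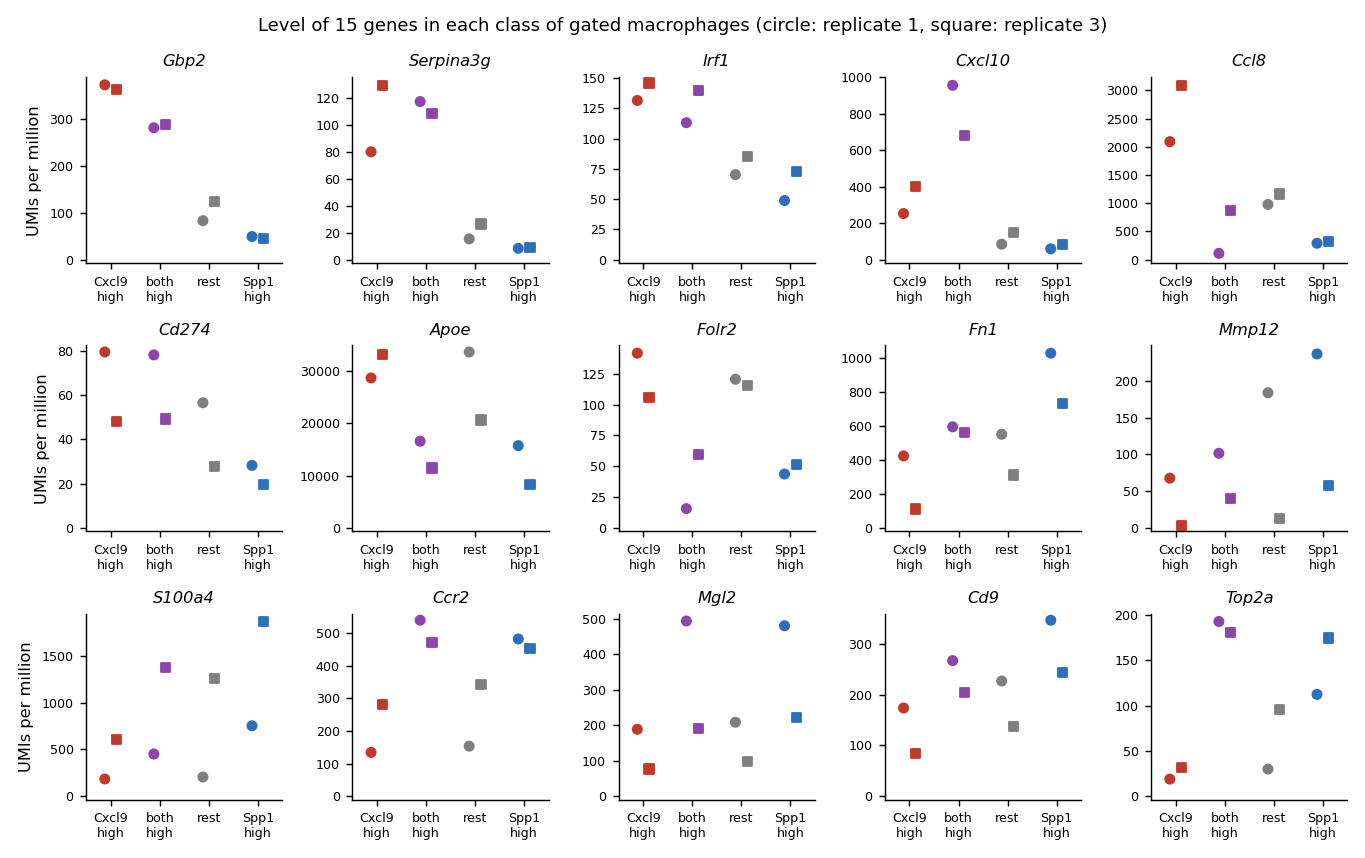
Level of 15 genes (y axis, CPM, from 0) in 4 classes of gated macrophages, 1 point per tumour (circle replicate 1, square replicate 3). Gbp2, Serpina3g, Cxcl10 and Cd274 were raised in both classes selected for Cxcl9, while Ccl8, Apoe and Folr2 were not raised in barcodes high for both genes, and Fn1 was highest in Spp1-high cells.

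Genes of lipid-associated macrophages, a state often named after Spp1 and Trem2 together, were divided between the sides. Of 25 tested, 9 were higher in Cxcl9-high (36%, against 7.04% of all genes) and 4 in Spp1-high cells (16%, against 7.23%). The median was 0.33. Apoe, the lipid carrier, stood at 28661 and 33085 CPM in Cxcl9-high cells and at 15714 and 8214 in Spp1-high cells (1.54 ± 0.255; adjusted p = 0.00972). The rest of the gate, at 33621 and 20627, was as high as Cxcl9-high cells in replicate 1. The cholesterol exporter Abca1 (342 and 184 against 146 and 72.9), the oxysterol receptor Nr1h3 (25.4 and 25.9 against 7.51 and 10.0) and the lysosomal tetraspanin Cd63 (1429 and 1082 against 783 and 442) were also higher in Cxcl9-high cells. Trem2, the lipid receptor itself, stood at 577 and 646 against 493 and 511 (0.36 ± 0.0977; adjusted p = 0.0478), and 7 of the alternative settings with the block ended that call. Fabp5 stood at 963 and 504 against 659 and 355.

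On the Spp1 side of the same list stood Lpl, Cd9, Lgals1 and Lgals3. Cd9, a tetraspanin often used beside Spp1 and Trem2 as a marker, stood at 347 and 243 against 174 and 84.6 CPM (-1.19 ± 0.131; adjusted p = 0.00312). Lgals3, galectin 3, stood at 1796 and 1584 against 1348 and 838 (-0.59 ± 0.121). Lpl, lipoprotein lipase, was low, at 7.34 and 23.5 against 0.939 and 4.44, and its call was lost with depth-matched barcodes (adjusted p = 0.2). Gpnmb was near the floor on both sides, with 0.939 and 0.185 against 0.342 and 0.985, and did not pass the test.

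Genes of lysosomes and of resident macrophages were more often higher in Cxcl9-high than in Spp1-high cells. In replicate 1 the rest of the gate summed above Cxcl9-high cells, at 18753 against 18414 CPM (lysosomal) and 7032 against 6337 (resident). In replicate 3 it summed below them, at 18401 against 21258 and 4824 against 5509. Of 26 lysosomal genes, 12 were higher in Cxcl9-high and none in Spp1-high cells (median 0.56). Ctsb, cathepsin B, stood at 2653 and 2534 against 1796 and 1309 CPM (0.84 ± 0.138). Of 24 genes of resident or alternatively activated macrophages, 13 were higher in Cxcl9-high and 1, Mgl2, in Spp1-high cells (median 0.75). These shares were 54.2% and 4.17%, against 7.04% and 7.23% of all genes. Folr2, the folate receptor of perivascular tissue macrophages, stood at 142 and 106 against 43.7 and 51.7 (1.41 ± 0.149; adjusted p = 0.00312). Vcam1, an adhesion molecule, stood at 200 and 103 against 40.5 and 12.3 (2.76 ± 0.185). For Apoe, Folr2, Ctsb and Vcam1 the low values were those of Spp1-high cells, and the rest of the gate held intermediate or high values.

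Other members of that list rest on few cells. In Cxcl9-high cells all 28 UMIs of Cd209f came from 1 barcode of replicate 1, and its 59 UMIs of Vsig4 came from 3 barcodes. Neither gene had a UMI in the Cxcl9-high cells of replicate 3, and the Vsig4 difference there was -2.11. Mrc1, the mannose receptor CD206, stood at 573 and 309 against 514 and 251 and did not pass the test (0.30 ± 0.101; adjusted p = 0.0865). Mgl2, a lectin of macrophages and dendritic cells, stood at 480.1 and 220.4 in Spp1-high cells against 188 and 76.5 (-1.36 ± 0.107; adjusted p = 0.00107).

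C4b, a component of the classical pathway, stood at 82.2 and 38.3 against 6.66 and 5.25 CPM (3.24 ± 0.201), and was at 0 and 5.55 in barcodes high for both. C3, the central complement protein, stood at 141 and 137 against 54.1 and 26.3 (1.95 ± 0.317). Fcgr4, an activating receptor for IgG, stood at 184 and 145 against 63.2 and 32.7 (1.93 ± 0.184). Fam26f, a membrane protein induced by interferon, and AW112010, a long transcript of activated leukocytes, were higher by 3.45 and 2.89.

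Genes of the extracellular matrix and of coagulation were divided. Of 33 genes of matrix, repair and angiogenesis tested, 7 were higher on each side (21.2%, against 7.04% and 7.23% of all genes). The median was -0.15. Fn1, fibronectin, stood at 1026 and 732 CPM in Spp1-high cells and at 422 and 111 in Cxcl9-high cells (-1.89 ± 0.293; adjusted p = 0.00793). It was detected in 91.0% and 94.6% of Spp1-high barcodes. The difference was -1.23 in replicate 1 alone and -2.62 in replicate 3 alone. Mmp12, macrophage elastase, stood at 237 and 57.5 against 67.6 and 2.96 (-2.64 ± 0.474; adjusted p = 0.0127). Its single-tumour values were -1.76 and -4.14. The rest of the gate in replicate 1 held 184 of Mmp12, nearer to the Spp1-high value. F10, coagulation factor X, stood at 94.1 and 23.8 against 31.0 and 1.67, and F7, factor VII, at 25.9 and 6.30 against 9.86 and 0. Each of these 4 genes was higher in Spp1-high cells in both tumours.

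Vegfa stood at 122 and 93.9 in Spp1-high cells and at 215 and 84.6 in Cxcl9-high cells (0.36 ± 0.246; adjusted p = 0.36), with opposite order in the 2 tumours. Arg1, arginase 1, stood at 631 and 282 against 427 and 196 (-0.47 ± 0.152; adjusted p = 0.0819). The highest Arg1 value in replicate 1 was that of the rest of the gate, at 735. Of 30 hypoxia and glycolysis genes, 4 (13.3%, against 7.04% of all genes) were higher in Cxcl9-high and none in Spp1-high cells (median 0.02), and 1 of them was called with depth-matched barcodes. Slc2a1, the glucose transporter GLUT1, did not pass the test (0.19 ± 0.204). In the 9 genes for osteopontin receptors, Cd44 was higher in Spp1-high cells, at 188 and 198 against 113 and 107 (-0.74 ± 0.0991; adjusted p = 0.00504), and Itga9 in Cxcl9-high cells (1.43 ± 0.141). Each side thus had 1 of the 9 called (11.1%, close to the 7.04% and 7.23% of all genes). The list's median was -0.04.

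Monocyte genes were partly on the Spp1 side. Of 19 tested, 5 were higher in Spp1-high and 2 in Cxcl9-high cells, with a median of -0.20. S100a4, a calcium-binding protein of monocytes and migrating cells, stood at 753 and 1870 against 183 and 609.7 CPM (-1.79 ± 0.277; adjusted p = 0.00793). S100a6 stood at 1591 and 1684 against 446 and 577 (-1.63 ± 0.208). Ccr2, the receptor that brings monocytes out of the bone marrow, stood at 483 and 455 against 134 and 281 (-1.21 ± 0.291; adjusted p = 0.0335). Its difference was -1.80 in replicate 1 and -0.59 in replicate 3, and DESeq2 did not call it, at a difference of -1.23 (adjusted p = 0.0708). Ly6c2, the marker of classical monocytes, was low on both sides, at 13.3 and 10.2 against 5.17 and 11.9, and did not pass the test. Asgr2, a lectin receptor also made by monocytes but not in that list, stood at 69.0 and 94.0 against 12.2 and 16.3 (-2.44 ± 0.129; adjusted p = 0.000294). Of the 19 listed genes tested, 8 had a positive difference. Among these, Lyz2 stood at 13080 and 17310 in Cxcl9-high cells against 10384 and 11849 in Spp1-high cells. The summed list did not favour Spp1-high cells, at 17160 and 20502 CPM against 17095.5 and 22334 in Cxcl9-high cells.

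Cell cycle genes were higher in Spp1-high macrophages. Of 25 tested, 24 were higher there and none in Cxcl9-high cells, against a background of 7.23%, with a median of -2.24. Top2a stood at 112.5 and 175 CPM in Spp1-high cells and at 18.8 and 32.0 in Cxcl9-high cells (-2.51 ± 0.288; adjusted p = 0.00363). Ube2c, a ubiquitin-conjugating enzyme of mitosis, stood at 131 and 175 against 10.3 and 35.6 (-2.80 ± 0.422). Mki67, the Ki-67 antigen, stood at 90.5 and 133 against 27.7 and 34.8 (-1.82 ± 0.247). Among the 15 largest differences on the Spp1 side in genes of at least 50 CPM there, 13 were genes of DNA replication, chromatin or mitosis, the exceptions being Mmp12 and Asgr2. CCAAT was present in the 250 bases before the start for 15 of the 19 called cell cycle genes found in the table (78.9%), against 33.9% of all promoters and 40.5% of tested genes. Over all 20 listed cell cycle genes found there, called or not, the share was 80%. It was 92.3% for the 13 matched MHC class I genes that were called, all higher in Cxcl9-high cells.

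The cell cycle difference moved with depth. With barcodes of the 2 sides matched in bins of depth in each tumour (94 and 159 per side), 6 of the 25 genes were called, all higher in Spp1-high cells, and the median was -1.46. The difference of Top2a was then -1.46 as well, with an adjusted p of 0.104. Leaving out every barcode with a UMI of Mki67 or Top2a left 19 genes tested, 5 of them called, and a median of -0.45. At full depth, Mki67 or Top2a was detected in 33.7% and 35.9% of Cxcl9-high barcodes and in 36.3% and 59.4% of Spp1-high ones. Thinned to 5000 UMIs per barcode the shares were 9.47% and 14.0% against 20.5% and 32.5%, lower in Cxcl9-high cells in both tumours. T cell barcodes, some of which divide, held 16.4% and 21.6% at that depth. Only 134 of 334 and 501 of 717 T cell barcodes were deep enough to be thinned. The highest doublet scores fell on 5.26% and 3.23% of Cxcl9-high and on 5.13% and 8.05% of Spp1-high barcodes. Removing them left the median at -2.22, and their part in the result beyond that was not tested.

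The interferon-gamma list was also fitted under these settings. With depth-matched barcodes 21 of 28 tested genes were called, with a median of 1.56, and without dividing barcodes 22 of 31, with a median of 1.67. Over all genes, depth matching gave 438 and 262 calls. Of the 841 genes first called higher in Cxcl9-high cells 420 were called again, and of the 864 higher in Spp1-high cells 241. All but 1 of those with a value kept their sign.

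Levels between the thresholds are given as a description, since Cxcl9 and Spp1 counts chose the steps. At no more than 2 Spp1 UMIs, the summed interferon-gamma list was higher with more Cxcl9, from 2196 CPM at 0, through 2504 at 1 to 2 and 2631 at 3 to 5, to 3609 at 6 or more in replicate 1. The same steps in replicate 3 held 2222, 2814, 2912 and 3698. The step just outside the threshold of 3 UMIs therefore lay close to the step just inside it. That step inside held only 18 barcodes in replicate 1 and 57 in replicate 3. At 0 Cxcl9 UMIs, the list was lower with more Spp1, from 2196 and 2222 at 0 to 2 Spp1 UMIs to 1583 and 1514 at 50 or more.

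Lipid-associated genes, cell cycle genes and Fn1 differed in steps along Spp1, also below its threshold. The lipid-associated list held 49327 and 38245 CPM at 0 to 2 Spp1 UMIs, 34096 and 20737 at 10 to 19, 27857 and 18439.9 at 20 to 49, and 23746 and 17079 at 50 or more. Fn1 was higher over the same range, from 545 and 223 to 1229 and 924. Cell cycle genes went from 528 and 1102 to 2372 and 2899.9, and in replicate 3 the level was already reached at 10 to 19 UMIs (2922). Median depth was higher over these steps as well, from 17753 to 28033 UMIs in replicate 1 and from 21214 to 36602 in replicate 3.

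**Figure D3:**
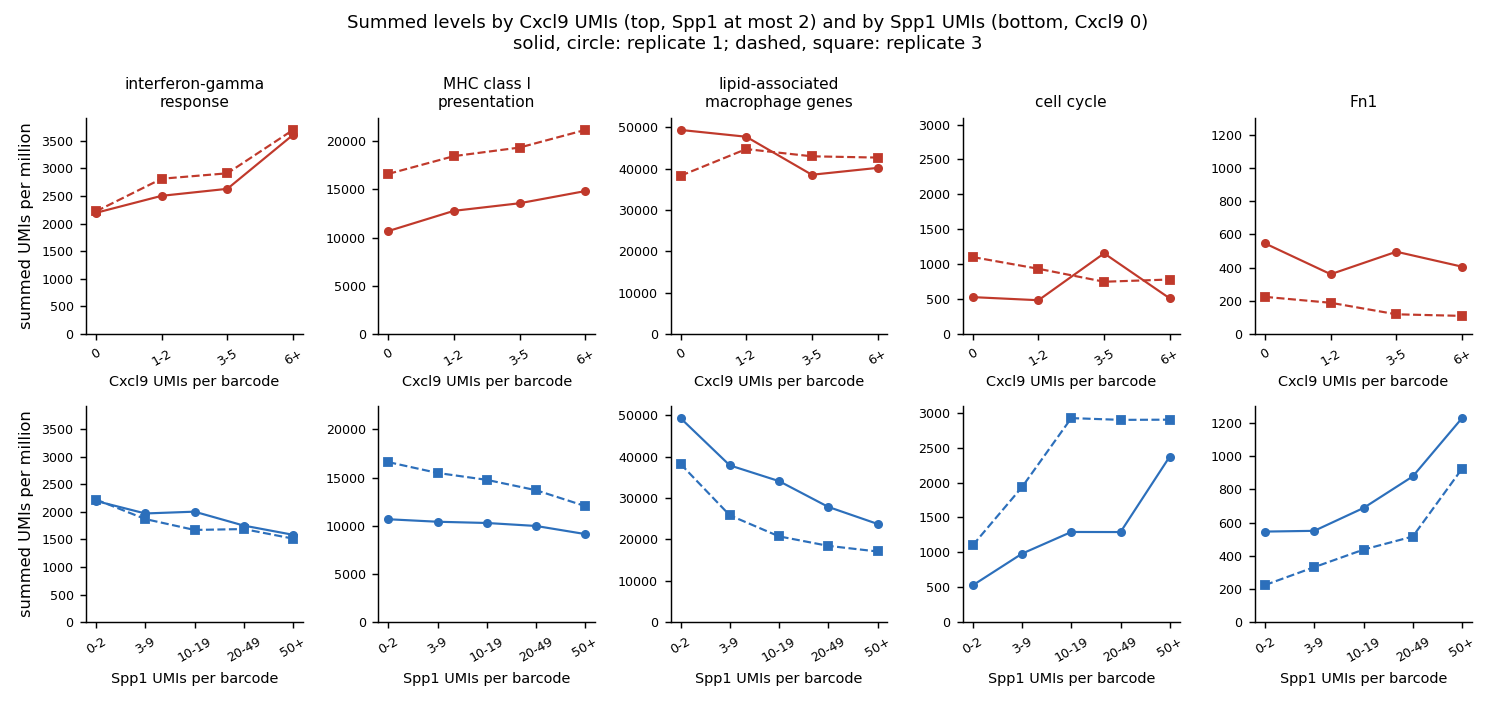
Summed level (y axis, CPM, from 0) of 4 gene lists and of Fn1 by the number of Cxcl9 UMIs per barcode (top row, at most 2 Spp1 UMIs) and of Spp1 UMIs (bottom row, no Cxcl9 UMI), solid with circles for replicate 1 and dashed with squares for replicate 3. Interferon-gamma genes climb along Cxcl9 to 3609 and 3698, and Fn1 climbs along Spp1 to 1229 and 924. The high cell cycle point at 3 to 5 Cxcl9 UMIs in replicate 1 rests on 18 barcodes.

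Genes of dissociation stress and of inflammation were called on the Cxcl9 side more often than all genes (7.04%). Of 16 genes of dissociation stress, 7 were higher in Cxcl9-high and none in Spp1-high cells, with a median of 0.39, and 2 were called with depth-matched barcodes. Hspa1a, a heat shock protein, stood at 13.6 and 284 against 15.7 and 62.3 CPM, so that only replicate 3 showed the difference, and without that replicate it was -0.16. Of 14 inflammatory cytokines and enzymes, 5 were higher in Cxcl9-high cells (35.7%), with a median of 0.34. In Spp1-high cells 1 was higher (7.14%, close to the 7.23% of all genes). Without dividing barcodes the counts were 1 and 2. The 5 were Il1a, which encodes interleukin 1 alpha (28.2 and 7.41 against 12.98 and 3.17 CPM; 1.24 ± 0.18), the inflammasome sensor Nlrp3 (0.52), and the NF-kappaB regulators Tnfaip3 (0.63), Nfkbia (0.61) and Nfkbiz (0.56). Il1b stood at 770 and 584 against 503 and 513 and did not pass the test (0.46 ± 0.165; adjusted p = 0.103). Ptgs2, cyclooxygenase 2, was the 1 gene higher in Spp1-high cells, at 46.3 and 59.4 against 17.4 and 27.0 (-1.16 ± 0.14). Of 19 oxidative phosphorylation genes 2 were higher in Spp1-high cells, a share close to the 7.23% of all genes, and none with depth-matched barcodes. Of 27 transcription factors 4 (14.8%, against 7.04% of all genes) were higher in Cxcl9-high cells, led by Batf2 (1.91 ± 0.232). In Spp1-high cells 2 were higher (7.41%, close to the 7.23% of all genes), Bhlhe40 and Myc, whose calls were lost in 3 and 7 alternative settings with the block. Hmox1 and Thbs1 did not pass the test. Of 16 genes of Fc receptors and dead cell uptake, 4 were higher in Cxcl9-high (25.0%) and 1 in Spp1-high cells (6.25%, close to the 7.23% of all genes). Of 18 genes of haem and iron, 4 were higher in Cxcl9-high (22.2%) and none in Spp1-high cells. Of 10 genes of arginine handling 1 was higher on each side (10%, against 7.04% and 7.23% of all genes).

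Markers of other cell types were low on both sides, with exceptions in replicate 1. The 17 T and NK cell markers summed to 18.3 and 73.5 CPM in Cxcl9-high cells and to 64.4 and 20.1 in Spp1-high cells, against 8749 and 9179 in T cell barcodes. The direction differed between tumours, and 8 of the 17 were at 0 in the Cxcl9-high cells of replicate 1. Cd4 and Cxcr3 were called higher in Cxcl9-high cells, and neither with depth-matched barcodes. Neutrophil markers summed to 578 and 95.2 against 752 and 87.1, and to 1555 and 68.1 in the rest of the gate. Dendritic cell markers summed to 20.7 and 40.7 against 27.0 and 28.9, and B, plasma and mast cell markers to 29.1 and 145 against 36.5 and 68.1. In replicate 3, 1 barcode held all 41 UMIs of Siglech, a marker of plasmacytoid dendritic cells, in Cxcl9-high cells, and without that replicate the difference of Siglech was -1.59. For neutrophil markers a single barcode held 45.5% of the Cxcl9-high sum of replicate 1. The part of these cells in the results was not tested.

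Tumour, stromal and endothelial markers stood apart in 1 group. They summed to 340 CPM in Spp1-high cells of replicate 1, against 75.1 in its Cxcl9-high cells and 34.9 and 35.4 in Spp1-high and Cxcl9-high cells of replicate 3. At 50 or more Spp1 UMIs the sum in replicate 1 was 712, and a single barcode held 25.2% of the sum of the Spp1-high side. Epcam, an epithelial adhesion molecule, stood at 12.3 and 6.73 in Spp1-high cells against 0.470 and 0.741 in Cxcl9-high cells (-3.60 ± 0.481; adjusted p = 0.00504). Its UMIs were found in 20 of 234 and in 39 of 497 Spp1-high barcodes. The reporters of the tumour lines were nearly absent, with YFP at 5.98 and 0 and RFP at 2.05 and 0.164 in Spp1-high cells, and neither passed the test. Of the 35 YFP UMIs on the Spp1-high side of replicate 1, 29 came from 1 barcode. The part of tumour or stromal RNA in the differences was not tested.

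Spatial code shares of the sides were close in both tumours. The codes read were ZC1, ZC2 and ZC5 in replicate 1 and ZC1, ZC5 and ZC6 in replicate 3, and levels were compared only within a tumour. ZC1 made up a mean of 36.4% of a barcode's code UMIs in Cxcl9-high cells of replicate 1 and 36.5% in Spp1-high cells, and 8.13% and 7.58% in replicate 3. ZC5 made up 39.4% on both sides in replicate 1, and 26.5% and 25.4% in replicate 3. ZC2 stood at 24.3% and 24.1%, and ZC6 at 65.4% and 67.0%. Over both tumours the difference was 0.232 ± 0.447 percentage points for ZC1 and 0.509 ± 0.807 for ZC5 (SD, n = 2; Cxcl9-high minus Spp1-high). An exact two-sided sign-flip permutation test over 2 tumours cannot go below p = 0.5, and it gave 1 for both.

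T cell barcodes had other code shares in the same libraries. Their mean ZC1 share was 45.0% in replicate 1 and 12.2% in replicate 3, above the means of both macrophage sides. In replicate 3 the median T cell share was 6.78%, against 7.63% in Cxcl9-high and 6.79% in Spp1-high cells, so only the mean was higher there (SD over barcodes 15.1). Barcodes high for both genes held 30.3% of ZC5 in replicate 3, against 26.5% and 25.4% on the sides, and 38.1% in replicate 1, against 39.4% on both sides. When code UMIs were pooled over barcodes in place of averaging their shares, ZC1 in replicate 1 was 45.0% in Cxcl9-high against 37.8% in Spp1-high cells. A single Cxcl9-high barcode held 15.1% of those pooled UMIs, with 78.5% of its own as ZC1.

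**Figure D4:**
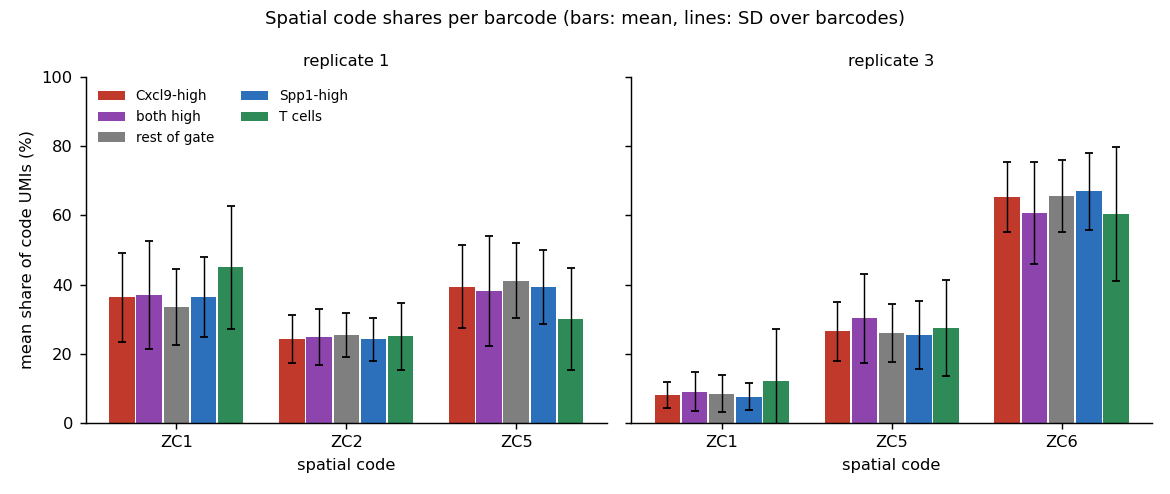
Mean share of each spatial code among a barcode's code UMIs (y axis, percent) in 5 classes of barcodes for replicate 1 (left) and replicate 3 (right), with lines for the SD over barcodes. Cxcl9-high and Spp1-high bars are nearly level for each code (36.4% and 36.5% for ZC1 in replicate 1), while T cell barcodes reach 45.0%.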

How the data were processed

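The deposited gene by barcode matrices hold raw UMI counts per gene and code, not normalized, per the file headers; Cell Ranger 4.0 and build mm10 are given per the submitters' processing notes. The matrices held 89040909 gene UMIs (replicate 1) and 170328781 (replicate 3), with 6525522 and 4115178 code UMIs. Barcodes were gated as the report states and counts summed per tumour and class. The 20 genes that chose the cells (Cxcl9, Spp1, Csf1r, Cd3e, C1qa, C1qb, C1qc and 13 mitochondrial genes) were left out of tests and library sizes. Sums were fitted with edgeR 4.0.16 (R 4.3.3; filterByExpr, TMM, quasi-likelihood F-test, tumour block, 2 residual degrees of freedom), with Benjamini-Hochberg adjustment over 11943 genes; each SE is of the log2 difference. The test was checked on simulated data. DESeq2 1.42.0 was an alternative. Doublets were scored with scanpy 1.11.5 and kept; an alternative removed the highest scores.

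The replicate number names the tumour, so both sides of a number come from 1 library. Deviations of same-tumour sums correlated at 0.413, 0.571 and 0.720 over the 3 class pairs.

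Members and lists were chosen with earlier results of these data known. Genes were named by a rule: the 15 largest differences in each direction among genes past the threshold, with the same sign in both tumours and at least 50 CPM; up to 4 called genes per list and direction; and a preset list. Other named genes were chosen after their values were seen. Some genes that the rule names are not reported here. Of the listed genes, 7 were not matched and are not analysed here. Alternatives changed the thresholds, depth, filters, scaling, block, doublets, dividing barcodes and free RNA. The fit with barcodes high for both genes as a class of their own, and the share of ZC1 in ZC1 and ZC5, were added after seeing the data.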

Additional observations from a re-analysis of the deposited data

How the results depend on the processing

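With only 2 tumours, the calls rest on the tumour as replicate block: without it, 0 genes were called higher in either side. Counts of genes higher in Cxcl9-high cells were 530 in a fit of the 2 sides alone, 438 with depth-matched barcodes and 476 without dividing barcodes, against 841. Counts of genes higher in Spp1-high cells were 262 with depth-matched barcodes, 338 without dividing barcodes and 1613 with no filter on low counts, against 864. The mean share of Spp1-high cells was 1.499% after thinning to 5000 UMIs, against 11.6%. Leaving out a tumour gave 3.17% to 7.64% for Cxcl9-high and 7.82% to 15.3% for Spp1-high cells. Code differences with pooled UMIs were 3.79 points for ZC1, -1.92 for ZC2 and -1.92 for ZC5; for ZC1 in ZC1 and ZC5 they were 3.95 pooled, 0.389 with at least 50 code UMIs and 0.851 with depth-matched barcodes, against 0.135. Leaving out a tumour gave -0.0842 to 0.548 for ZC1, -0.0614 to 1.08 for ZC5 and -0.0048 to 0.274 for their ratio. Differences changed sign without dividing barcodes for Tpx2 (0.22), Hist1h2ae (0.016) and Ccna2 (0.022). Leaving out a tumour gave a range over 0 for Vsig4 (-2.11 to 8.40), Hspa1b (-0.30 to 2.21), Hspa1a (-0.16 to 2.29) and Siglech (-1.59 to 2.40). The cause of these moves was not tested.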
